A study of Homo sapiens and Mus musculus with 66 samples.

Results

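The beta-defensin genes of the human genome were followed through the deposited lists of lamina-associated domains (LADs), the stretches of chromatin that lie at the nuclear lamina. The genes are the protein-coding genes of GENCODE release 44 on hg19 whose symbol starts with DEFB, and 40 of the 20162 protein-coding genes on chromosomes 1 to 22, X and Y met this rule. They are short, with a median length of 4449 bp against 27220 bp for all protein-coding genes, and they occupy 19 windows of 100 kb. Genes less than 1 Mb apart were joined, which gave 6 clusters and 1 gene on its own. The first block at 8p23.1 holds 15 genes (chr8:6728114-7754238) and the second block 5 (chr8:11831446-12175825). At 20p13 there are 6 genes (chr20:67891-241737), at 20q11.21 there are 7 (chr20:29845467-30064560), at 6p12.3 there are 4 (chr6:49927962-50017642), and at 11q13.4 there are 2 (chr11:71544246-71595607). DEFB131A stands alone at 4p16.1 (chr4:9446140-9452392).

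Beta-defensins are small secreted peptides that kill microbes by disturbing their membranes and that also attract immune cells. The best known of the 8p23.1 region, DEFB1, DEFB4A and DEFB103A, are known mainly from skin, gut and airway epithelium. Many of those on chromosomes 6 and 20 are known from the epididymis, where they coat sperm. Part of the 8p23.1 region is present in a variable number of copies in people, and hg19 carries it as an A and a B copy. At the lamina, chromatin is as a rule poor in genes and little transcribed.

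Lamin-B1 cTSA-seq uses a peroxidase bound to an antibody against lamin B1 to deposit biotin on nearby chromatin, which is then pulled down with streptavidin and sequenced beside an input library. The 10 lists used here come from HCT116, a human colorectal carcinoma line, and K562, a human leukemia line. HCT116 cells were blocked in mitosis with nocodazole for 16 h according to the labels, released and sorted for G1 (90m G1 and 180m G1, at 90 and 180 min), or sorted as G1, S and G2 cells without treatment. Untreated, unsorted HCT116 cells gave a bulk list and lists from 50000, 200000 and 1000000 cells (50k, 200k and 1e6), and K562 was an untreated, unsorted bulk population. A further list, called by the authors from published K562 TSA-seq data, is given only for comparison. The stage, bulk and K562 cTSA-seq groups have 2 input and 2 pull-down libraries each. The 50k and 200k groups have 1 input and 2 pull-down libraries, and the 1e6 group has 1 of each. Each list is 1 value per condition, made from its libraries by the authors, and holds region starts and ends without signal or depth. By the labels the 1e6 list rests on 1 pull-down library. No spread between replicates could be given, no difference between lists was tested, and every value is a description of the deposited calls. The lists carry no expression, so no marker gene of either cell line was checked.

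The lists differ in how much they call. The HCT116 lists cover between 17% of the genome in 90m G1 and 26.9% in bulk, and the K562 cTSA-seq list covers 39.6%. A gene is termed called where regions cover 80% or more of it. Of the 40 DEFB genes, each lay wholly inside or wholly outside the regions of each list, so no member depended on this threshold.

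DEFB genes were called mainly in 90m G1 and in bulk HCT116 cells, and 13 of the 14 genes called in 90m G1 and 8 of the 11 called in bulk lay in the first block at 8p23.1. In 90m G1, 14 of 40 genes (35%) were called, against 17.2% of all protein-coding genes. No DEFB gene was called in 180m G1, where 5.3% of all genes were, in G1 (4.81% of all genes) or in G2 (4.55%). In S, DEFB112 at 6p12.3 was the only DEFB gene called, against 5.38% of all genes. In bulk, 11 of 40 (27.5%) were called, against 11.1% of all genes. The 50k and 200k lists each called 3 DEFB genes (7.5%), against 5.98% and 5.08% of all genes, and the 1e6 list called none, against 4.89%. In K562 cTSA-seq 1 gene (2.5%) was called against 11% of all genes, and in the K562 TSA-seq list 4 (10%) against 9.21%. Neighbouring genes share windows, and the 14 genes called in 90m G1 lie in 6 windows, as do the 11 called in bulk. Without the 15 genes of the first block at 8p23.1 the count in 90m G1 was 1 and that in bulk was 3. The larger DEFB shares in these 2 lists thus rested on that block.

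**Figure D1:**
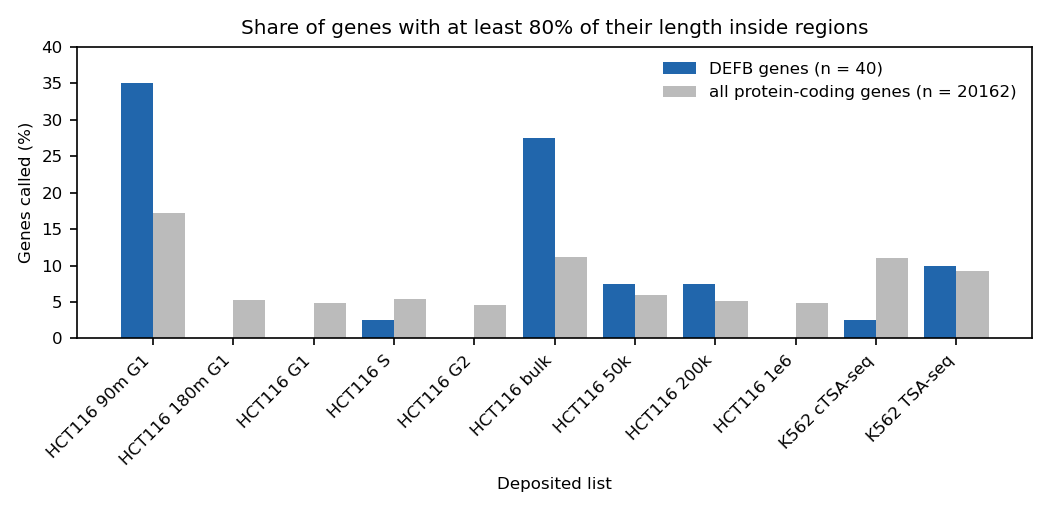
Percent of the 40 DEFB genes (blue) and of all 20162 protein-coding genes (grey) called in each deposited list, where called means that regions cover 80% or more of the gene. The DEFB bars stand above the grey bars in 90m G1 (35% against 17.2%) and in bulk (27.5% against 11.1%), and are at 0 in 180m G1, G1, G2 and 1e6.

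Across the 5 stages, the 14 genes called in 90m G1 (35% of the 40) were called in none of G1, S and G2. Of all protein-coding genes 14.7% had this pattern, which is 2962 of the 3462 called in 90m G1. No DEFB gene joined the regions of G1, S and G2 together while being absent from 90m G1 (2.23% of all genes), and none was called in all 5 stages (1.08%). Outside the regions of all 5 stages were 25 DEFB genes (62.5%), against 77.7% of all genes. The 11 genes called in bulk were in none of G1, S and G2. Of all genes 5.5% had this pattern, which is 1108 of the 2236 called in bulk. Of the 11, 9 were in none of the 50k, 200k and 1e6 lists (5.71% of all genes, 1152 of the 2236). The same 11 were not called in K562 cTSA-seq. Of all genes 7.27% were called in bulk alone of this pair, which is 1465 of the 2236 called in bulk. The reverse, called in K562 cTSA-seq and not in HCT116 bulk, held for DEFB112, against 7.22% of all genes. In none of the 10 condition lists were 21 DEFB genes (52.5%), against 69.5% of all genes, and DEFB114, DEFB113 and DEFB110 among them lay inside the K562 TSA-seq list. These comparisons share lists, so their counts are not independent of each other.

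**Figure D2:**
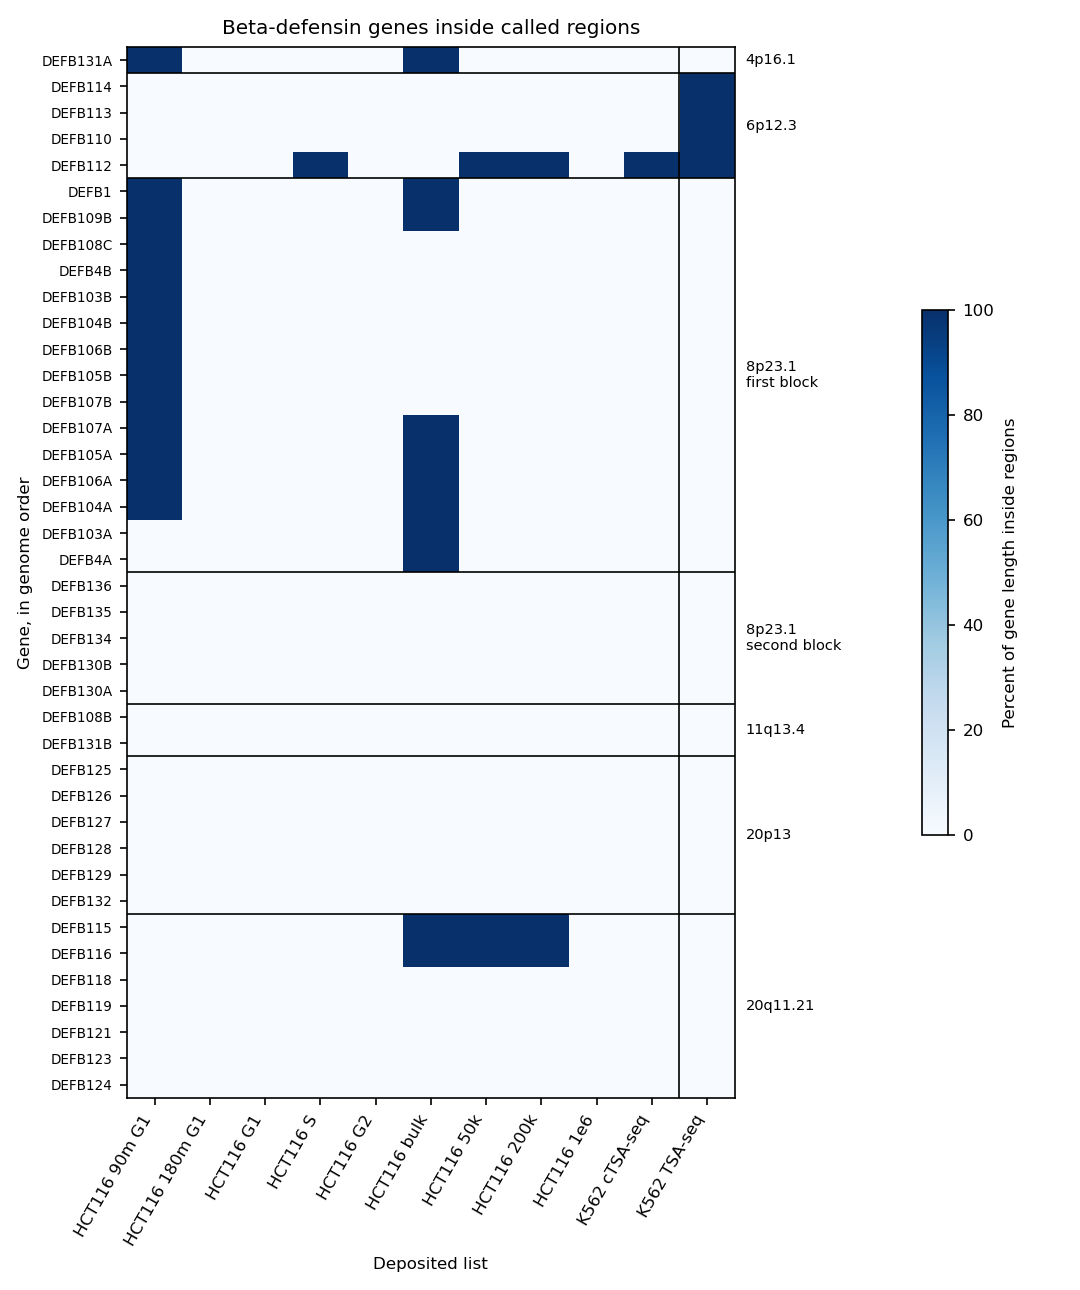
Percent of the length of each of the 40 DEFB genes (rows, in genome order, with clusters at the right) inside the regions of each list (columns), from 0 (pale) to 100 (dark). Every cell is 0 or 100, and the dark cells are 13 genes of the 8p23.1 first block in 90m G1 and 8 in bulk, DEFB131A in the same lists, DEFB112 in 4 of the 10 lists, DEFB115 and DEFB116 in 3, and the whole 6p12.3 cluster in K562 TSA-seq.

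The first block at 8p23.1 holds the best known members. DEFB1 (chr8:6728114-6735458) encodes the beta-defensin that epithelia make constitutively. DEFB4A and DEFB4B encode the inducible beta-defensin 2, and DEFB103A and DEFB103B encode beta-defensin 3. In 90m G1, a region of 1.1 Mb (chr8:6600001-7700000) held 13 of the 15 genes and ended before DEFB103A (chr8:7738914-7740185) and DEFB4A (chr8:7752199-7754238), the last gene of the block. In bulk, a region of 500 kb (chr8:6700001-7200000) held DEFB1 and DEFB109B, and a region of 600 kb (chr8:7400001-8000000) held DEFB107A, DEFB105A, DEFB106A, DEFB104A, DEFB103A and DEFB4A. The 7 genes between them, DEFB108C and the B copies of DEFB4, DEFB103, DEFB104, DEFB106, DEFB105 and DEFB107, were outside. In the other 8 lists, no gene of the block was called. In 180m G1, G1, S, 50k, 200k and K562 cTSA-seq, the nearest region ended at chr8:6100000, 628.1 kb before DEFB1. In G2 and 1e6 it ended 728.1 kb before DEFB1.

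At 8p23.1, 7 genes are present as an A and a B copy, 6 of them in the first block. In 90m G1, DEFB103 and DEFB4 had the B copy inside and the A copy outside, and DEFB104, DEFB105, DEFB106 and DEFB107 had both copies inside. In bulk, all 6 pairs of the block were split, each with the A copy inside and the B copy outside. The remaining pair, DEFB130 in the second block, was outside in every list. Counting only the A copy of each pair left 8 of 33 genes called in 90m G1, where 17.2% of all protein-coding genes were called. It left 11 of 33 in bulk, against 11.1% of all genes. Counting only the B copy, an alternative chosen after the data were seen, left 10 of 33 in 90m G1 and 5 of 33 in bulk. The copies share much of their sequence. Of the 31-base words of DEFB103A and DEFB103B, 100% also occur elsewhere in hg19, as do 84.5% for DEFB4A and 83.9% for DEFB104A, but 8.83% for DEFB1. Over the whole block the share was 76.5%, and 4.87% of its bases are N. A read that lies wholly in shared sequence cannot be assigned to 1 copy, and the part of this in the split calls was not tested.

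With 1 Mb on each side, the first block (3.03 Mb) was 36.4% called in 90m G1 and 48.6% in bulk. Chromosome 8 as a whole was 19.7% called in 90m G1 and 43.8% in bulk, so the bulk share was near that of the chromosome. Of this stretch, 0.372 Mb was called in 180m G1, G1, S, 50k, 200k and K562 cTSA-seq, and 0.272 Mb (8.98%) in G2 and 1e6. What was called in those 8 lists lay in the flank toward the chromosome end, outside the genes. Of the block itself, 94.7% was called in 90m G1 and 80.5% in bulk. The 42 other protein-coding genes of this stretch went with the DEFB genes: 28 (66.7%) were called in 90m G1, 31 (73.8%) in bulk and 0 in any other list. Of all protein-coding genes, 17.2% were called in 90m G1 and 11.1% in bulk.

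**Figure D3:**
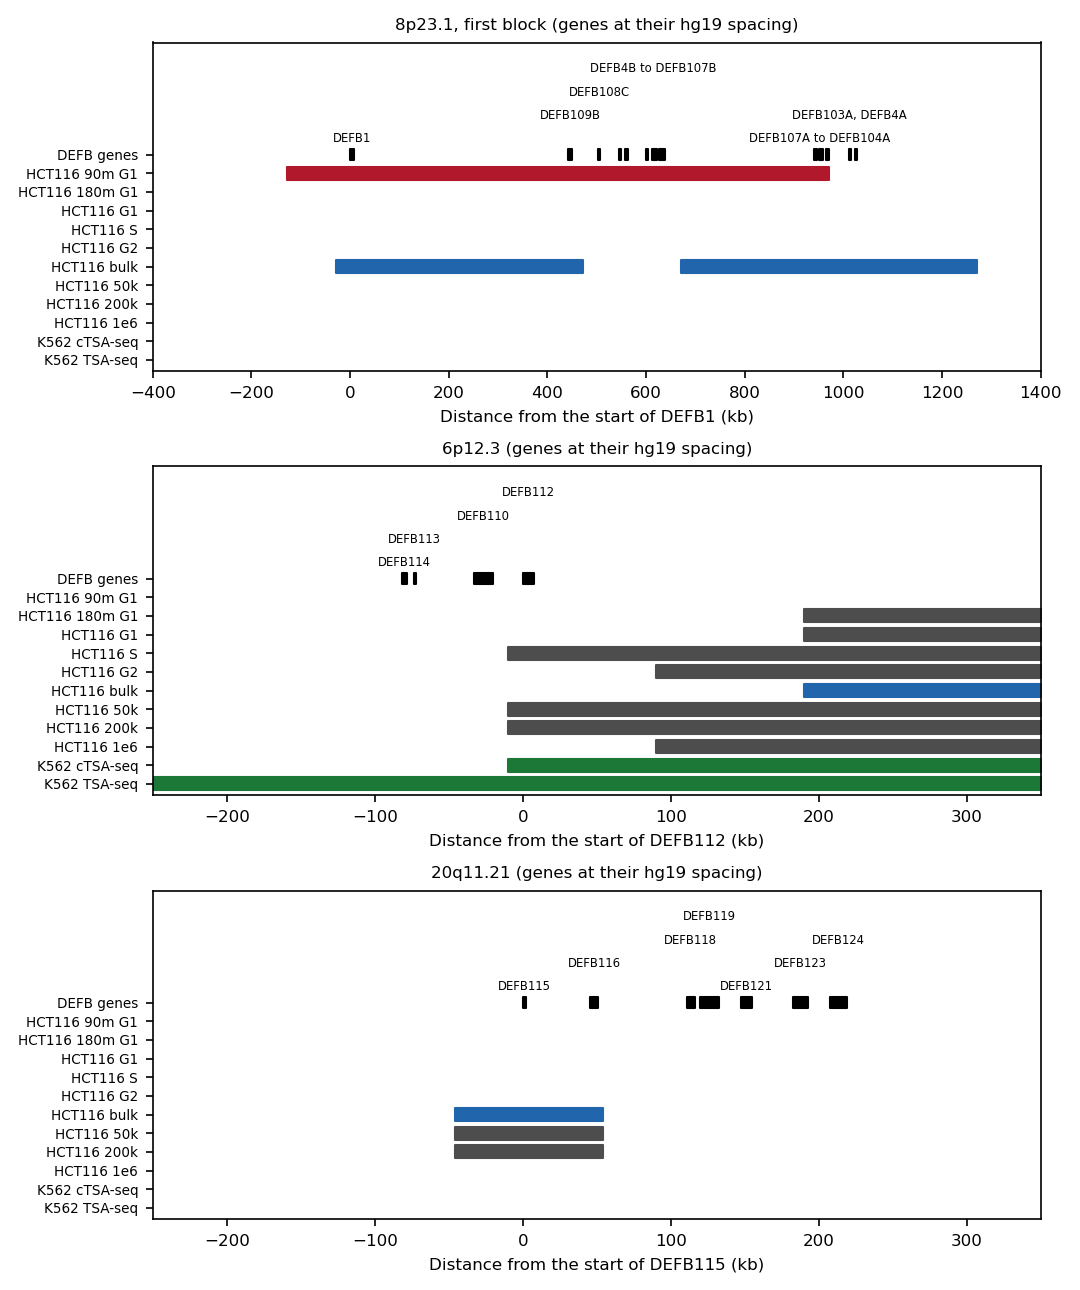
Called regions (bars) around the 8p23.1 first block, the 6p12.3 cluster and the 20q11.21 cluster in each list, against the distance in kb from the start of DEFB1, DEFB112 or DEFB115. Black marks are DEFB genes, the shortest drawn wider than they are. The 90m G1 bar ends before DEFB103A and DEFB4A, the 2 bulk bars leave out the B copies, the left ends at 6p12.3 step by 100 kb, and a single 100-kb window at 20q11.21 is called in bulk, 50k and 200k.

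The second block at 8p23.1 begins with DEFB136 and ends with DEFB130A, and none of its 5 genes was called in any list. The nearest region after it began at chr8:12800001 in 180m G1, G1, S, bulk, 50k and 200k, 624.2 kb from DEFB130A, at 724.2 kb in G2 and 1e6, and at 924.2 kb in K562 cTSA-seq. In 90m G1 the nearest region lay on the other side, 931.4 kb before DEFB136 (chr8:10100001-10900000). With flanks (2.34 Mb) the block was 2.92% called in 90m G1, 16% in 180m G1, G1, S, bulk, 50k and 200k, 11.8% in G2 and 1e6, and 3.23% in K562. In 180m G1, G1, S, 50k and 200k both blocks lay in 1 uncalled stretch of 6.7 Mb (chr8:6100001-12800000), and in K562 cTSA-seq that stretch was 7 Mb. N bases make up 14.5% of the second block, and 78.1% of its 31-base words occur elsewhere in hg19. The share was 95.9% for DEFB130B and 95.6% for DEFB130A, but 0% for DEFB136, 6.25% for DEFB135 and 2.45% for DEFB134. The part of this in the absence of calls was not tested.

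The 20p13 cluster runs from DEFB125 to DEFB132 and includes DEFB126, which encodes a protein of the sperm coat. It lies at the end of its arm, with DEFB125 67.9 kb from the first base of the chromosome. None of its 6 genes was called in any list, and with flanks (1.24 Mb, cut off by the chromosome end) the cluster was 0% called in all 10. Chromosome 20 as a whole was between 3.17% called, in 90m G1, and 32.2%, in K562 cTSA-seq. The 19 other protein-coding genes of the stretch were not called in any list either. The nearest region began 5958.3 kb after DEFB132 in 180m G1, G1, S, G2, bulk, 50k and K562 cTSA-seq, at 5858.3 kb in 1e6 and at 6058.3 kb in 200k. In 90m G1 the first region of the chromosome began at chr20:58600001, 58358.3 kb away.

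The ends of the short arms of chromosomes 8 and 20 were compared over their first 15 Mb. All 20 genes at 8p23.1 and the 6 at 20p13 lie in these stretches. On chromosome 8, 50% was called in 90m G1, 49.3% in 180m G1, 48% in G1 and in S, 46.7% in G2 and 61.3% in bulk. The 50k, 200k and 1e6 lists called 46%, 44.7% and 44.7%. On chromosome 20, 0% was called in 90m G1, 18% in 180m G1, 24% in G1 and in S, 24.7% in G2 and 20.7% in bulk, and 26%, 24.7% and 26% in 50k, 200k and 1e6. In each of the 9 HCT116 lists the chromosome 8 end was called over more of its length than the chromosome 20 end. The median of the other chromosomes, without the acrocentric ones and Y, was below chromosome 8 in each of these lists. It was far above chromosome 20 in 90m G1 (39.7%) and bulk (38.7%). It was closer above chromosome 20 in 180m G1 (20.3%), G1 (27.7%), S (25.7%) and 50k (26.7%). In G2 (21.7%), 200k (22.3%) and 1e6 (19.3%) it was below chromosome 20.

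In K562 cTSA-seq the order over 15 Mb was the other way, with 32.7% of the chromosome 8 end and 50.7% of the chromosome 20 end called, and the K562 TSA-seq list gave 30.7% and 48.7%. The order depended on the width, since over the first 5 Mb K562 cTSA-seq had 38% of chromosome 8 and 0% of chromosome 20 called, as in the HCT116 lists the larger share on chromosome 8, and over the first 10 Mb it had 30% and 34%. The K562 cTSA-seq list covers more of the genome than any HCT116 list. At 20p13 the first K562 region began at the same window as in HCT116 G1, so the DEFB genes were outside in both lines. Nearer the tip, the first 2 Mb of chromosome 8 were 95% called in 90m G1, 60% in 180m G1, 50% in G1, 55% in S, 60% in G2, 90% in bulk and 0% in K562. In 90m G1 the median of the other chromosomes was 90% over this width, and 6 of 18 were above chromosome 8. On chromosome 20 the first 2 Mb were 0% called in all 10 lists. The median of the other chromosomes over this width was 5% in bulk and also 0% in each list but 90m G1 and bulk. In 90m G1, 2 other chromosomes were at 0% too. Of the 150 windows in the first 15 Mb of chromosome 8, 26 were in all 10 lists and 46 in none. On chromosome 20, 0 were in all and 73 in none. Among the 18 chromosomes other than the acrocentric ones and Y, 3 had more of their first 15 Mb called in bulk than chromosome 8. Another 1 had the same as chromosome 8, and 11 had more than chromosome 20.

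**Figure D4:**
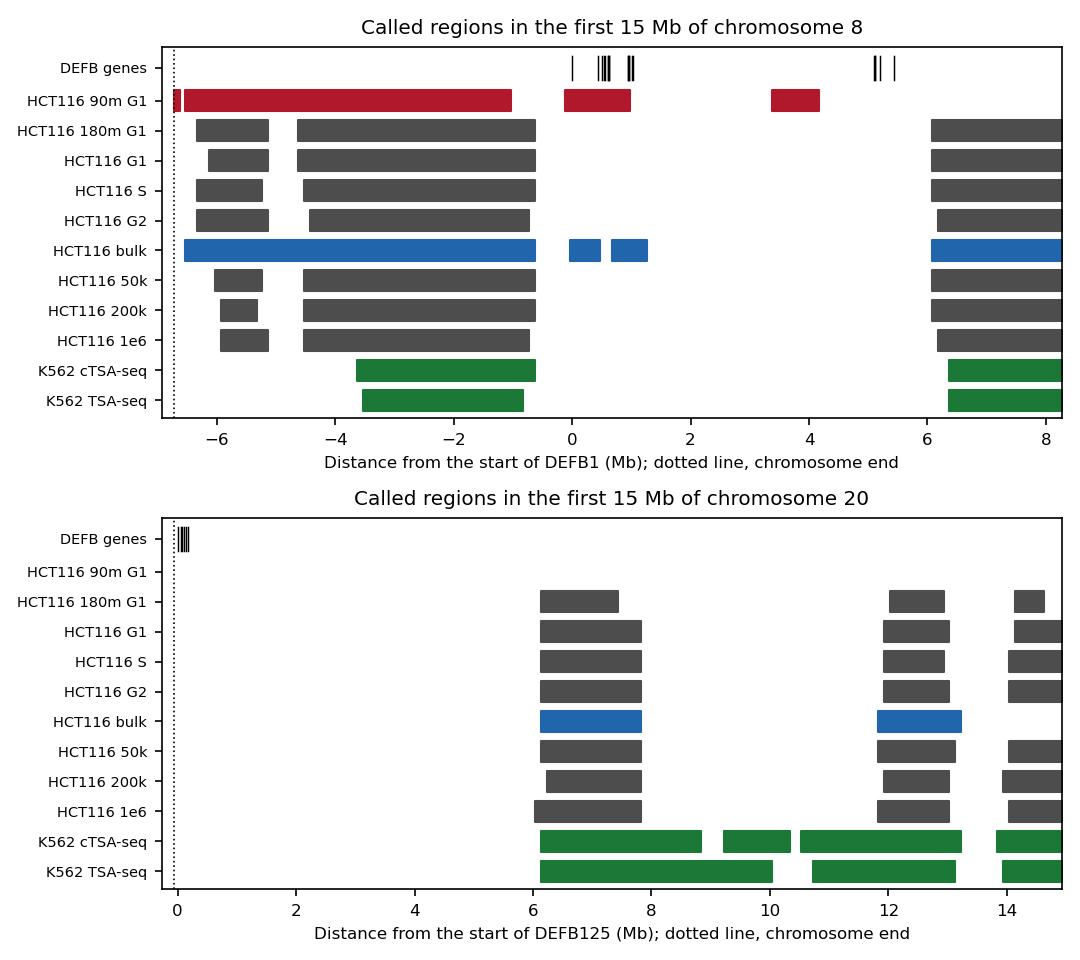
Called regions (bars) in the first 15 Mb of chromosomes 8 and 20 in each list, against the distance in Mb from the start of DEFB1 or DEFB125. Black ticks are DEFB genes and the dotted line is the chromosome end. On chromosome 8, 13 of the 15 genes of the first block are covered in 90m G1 and 8 in bulk, and none in the other lists. The 5 genes of the second block are covered in no list. On chromosome 20 the DEFB genes stand before the first called region in every list.

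DEFB131A at 4p16.1, a member outside the clusters, was called in 90m G1, inside a region of 7 Mb (chr4:3300001-10300000), and in bulk, inside a region of 1.8 Mb (chr4:8600001-10400000). In G1, G2 and 50k a region of 200 kb (chr4:9200001-9400000) ended 46.1 kb before the gene. In 180m G1 the nearest region began 347.6 kb after it, and in S, 200k and 1e6 the nearest was 4247.6 kb away. In K562 cTSA-seq it was 1147.6 kb away. With flanks (2.01 Mb), 92.4% was called in 90m G1 and 89.7% in bulk, 29.9% in 180m G1, 9.97% in G1, G2 and 50k, and 0% in S, 200k, 1e6 and K562. Chromosome 4 as a whole was 10.6% called in 90m G1, 17.1% in bulk and 63.2% in K562 cTSA-seq. All 27 other genes of the stretch were called in 90m G1 and 25 (92.6%) in bulk, against 17.2% and 11.1% of all genes. Of the 27, 20 are copies of the deubiquitinase gene family USP17L. These 20 were the genes called in G1, G2 and 50k. Of the 31-base words of DEFB131A, 50.6% occur elsewhere in hg19. In the windows of chr4:9200001-9400000 the shares were 89.5% and 82.1%, and 25.4% and 24.6% of the bases are N. The 2 genes at 11q13.4, DEFB108B and DEFB131B, were outside in every list. Over their span 56.9% of the 31-base words occur elsewhere in hg19. The nearest region to DEFB108B lay 644.2 kb away in 90m G1 and 6904.4 kb from DEFB131B in G1.

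**Figure D5:**
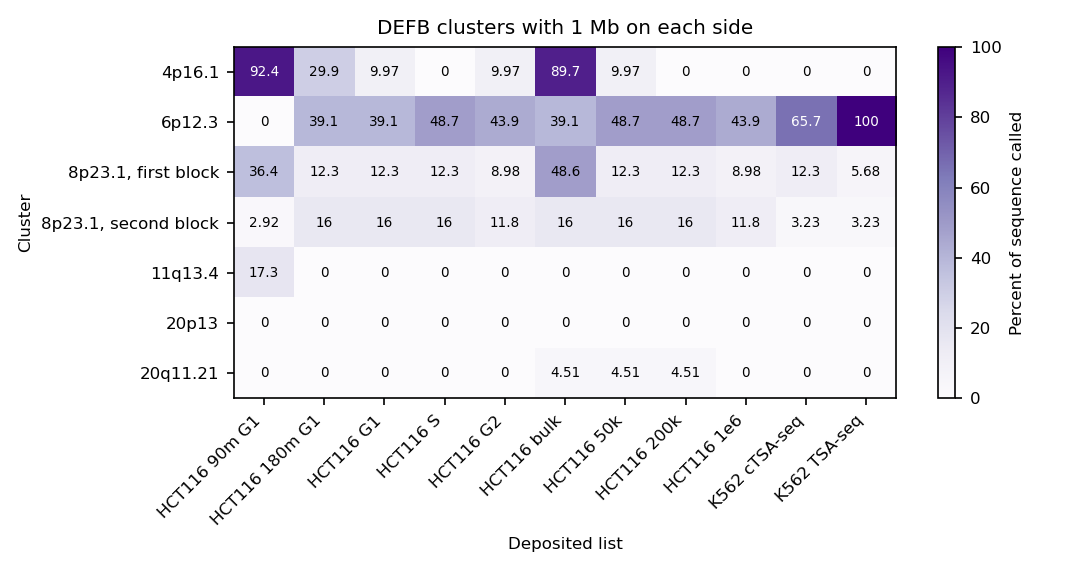
Percent of each DEFB cluster with 1 Mb on each side (rows) that lay inside the regions of each list (columns), with the value printed in each cell. The 4p16.1 stretch is at 92.4 in 90m G1 and 89.7 in bulk, the 6p12.3 stretch is at 0 in 90m G1 and between 39.1 and 65.7 in the other 9 condition lists, and 20p13 is at 0 throughout.

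The 4 genes at 6p12.3 lay at the edge of a region whose left end moved between lists. The region began at chr6:50000001 in S, 50k, 200k and K562 cTSA-seq, which placed DEFB112 (chr6:50009812-50017642) inside and DEFB110 (chr6:49976851-49989707), DEFB113 and DEFB114 outside. In G2 and 1e6 it began 1 window later, at chr6:50100001, and in 180m G1, G1 and bulk at chr6:50200001, so that no gene was inside. In K562 cTSA-seq this region ended at chr6:50900000, and in the HCT116 lists that had it, at chr6:51800000 or chr6:51900000. K562 cTSA-seq also had a region on the other side (chr6:47600001-49400000), which ended 528 kb before DEFB114. In 90m G1 no region lay within 9128 kb of the cluster. The K562 TSA-seq list had a region of 4.2 Mb (chr6:47700001-51900000) that took in all 4 genes. A share of 0.0078% of the 31-base words of DEFB110 and 3.22% of those of DEFB112 occur elsewhere in hg19. With flanks (2.09 Mb), 0% was called in 90m G1, 39.1% in 180m G1, G1 and bulk, 43.9% in G2 and 1e6, 48.7% in S, 50k and 200k, and 65.7% in K562 cTSA-seq. Of the left flank, 47.2% was called in K562 cTSA-seq and 0% in every HCT116 list. Chromosome 6 as a whole was between 13.2% and 18.5% called in the HCT116 lists and 43% in K562 cTSA-seq. Of the 11 other genes of the stretch, 2 were called in each of the 10 lists but 90m G1, where 0 were, and all 11 in the K562 TSA-seq list.

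The sequence before the start of DEFB112, the member that crosses the edge, is shown beside that of DEFB110, the nearest member that does not. Each is the 250 bases upstream of the annotated start in hg19, on the minus strand, 5′ to 3′ as the gene is read, with the letters TATAAA, or TTTATA where that motif is on the other strand, in capitals. DEFB112 is chr6:50017643-50017892 and DEFB110 is chr6:49989708-49989957.
DEFB112: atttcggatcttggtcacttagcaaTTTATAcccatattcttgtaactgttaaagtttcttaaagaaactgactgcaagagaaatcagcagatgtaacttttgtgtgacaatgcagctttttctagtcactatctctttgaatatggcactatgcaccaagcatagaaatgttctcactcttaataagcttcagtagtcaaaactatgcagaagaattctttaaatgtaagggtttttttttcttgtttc
DEFB110: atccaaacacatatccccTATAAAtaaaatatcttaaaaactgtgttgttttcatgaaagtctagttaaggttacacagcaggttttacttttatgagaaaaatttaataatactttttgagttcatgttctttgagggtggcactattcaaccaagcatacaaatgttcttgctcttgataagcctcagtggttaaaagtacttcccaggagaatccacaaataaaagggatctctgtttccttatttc
Aligned end to end, 175 of 268 columns (65.3%) were identical and 36 were gaps. GC content was 33.2% and 32.8%, with 1 and 0 CpG. A TATAAA motif on either strand was found in the 250 bases before the start of 16 of the 40 DEFB genes (40%) and of 2026 of 20140 protein-coding genes (10.1%) whose upstream sequence is complete. It was present at 3 of the 4 genes of 6p12.3. Such a match is a description of the letters and not a site.

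At 20q11.21, DEFB115 (chr20:29845467-29847435) and DEFB116 (chr20:29891015-29896388) were called in bulk, 50k and 200k, in each case through the single window chr20:29800001-29900000. DEFB118, which encodes a sperm-binding antimicrobial protein of the epididymis, DEFB119, DEFB121, DEFB123 and DEFB124, the last gene of the cluster, were outside in every list. In these 3 lists the called window ended before DEFB118, and the 7 genes had a median distance of 65 kb from it. In G1 the nearest region was 5245.5 kb from the cluster, in S and G2 5345.5 kb, in K562 cTSA-seq 3445.5 kb, and in 90m G1 28535.4 kb. The cluster with flanks (2.22 Mb) was 4.51% called in the 3 lists and 0% in the other 7. N bases, which hold no reads, make up 32.6% of that stretch and none of the genes' own span. The called window is 3.91% N, and the window just before it, chr20:29700001-29800000, is 100% N. The distances in G1, S, G2 and K562 cTSA-seq run across that window. None of the 20 other genes of the stretch was called in any list. Requiring regions of at least 200 kb removed this window, and DEFB112 was then the only DEFB gene called in 50k and 200k.

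The 250 bases before DEFB115, inside the window, and before DEFB118, the first gene outside it, are given in hg19 on the plus strand with the same marking, DEFB115 as chr20:29845217-29845466 and DEFB118 as chr20:29956154-29956403.
DEFB115: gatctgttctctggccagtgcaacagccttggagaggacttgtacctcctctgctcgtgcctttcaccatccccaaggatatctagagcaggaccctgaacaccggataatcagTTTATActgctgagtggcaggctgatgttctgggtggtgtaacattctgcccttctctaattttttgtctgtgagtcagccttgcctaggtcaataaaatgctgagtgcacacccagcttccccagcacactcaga
DEFB118: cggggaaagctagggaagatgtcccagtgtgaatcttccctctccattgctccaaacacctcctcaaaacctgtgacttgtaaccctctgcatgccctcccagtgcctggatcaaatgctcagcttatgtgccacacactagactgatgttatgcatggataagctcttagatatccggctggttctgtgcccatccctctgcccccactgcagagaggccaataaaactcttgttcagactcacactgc
These were identical in 152 of 308 aligned columns (49.4%), with 116 gap columns, and had a GC content of 50.4% and 51.2% and 2 CpG each. DEFB118 held no TATAAA on either strand. Over the stretch from 250 bases before to 50 after the start, DEFB genes had a median GC content of 45.7% and a median of 2 CpG, with ranges of 33.3% to 57% and 0 to 9. For 20140 protein-coding genes the medians were 60.3% and 18 CpG.

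Genes that work beside the beta-defensins were taken from lists chosen with the DEFB genes. The 6 alpha-defensin genes, which encode the related peptides of neutrophils and Paneth cells, lie among the DEFB genes of 8p23.1, and all 6 were called in 90m G1 and in bulk and in none of the other 8 lists. Of all protein-coding genes, 17.2% were called in 90m G1 and 11.1% in bulk. SPAG11A and SPAG11B, copies of an epididymal gene in the same block, were split as well, with SPAG11B called in 90m G1 alone and SPAG11A in bulk alone. Of 18 other antimicrobial genes, REG3A and REG3G, which encode gut lectins that kill bacteria, were called in each list but 90m G1, and the other 16 in none. These 2 genes (11.1% of the 18) are near neighbours on chromosome 2. In the lists that called them, between 4.55% (G2) and 11.1% (bulk) of all genes were called. Of 12 receptor and inducer genes, 4 (33.3%) were called in 90m G1, against 17.2% of all genes. These were CCR6, a chemokine receptor that beta-defensins bind, MC1R, the melanocortin receptor that beta-defensin 3 binds, and the bacterial sensors TLR4 and NOD2. TLR4 was called in all 10 lists, CCR6 also in G1 and bulk, and IL17A, an inducer of DEFB4A, in K562 cTSA-seq alone of the 10.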

How the data were processed

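Lamin-B1 cTSA-seq lists of HCT116 and K562 cells were used. The authors aligned reads to hg19 with Bowtie2 2.3.2, removed duplicates, counted reads in windows with bedtools 2.26.0, scaled libraries to one total, divided pull-down by input, z-scored the log2 values and segmented them by a Hidden Markov Model of 3 states. The Methods state that replicate calls were intersected, and the 90m G1 and 180m G1 lists, unlike the other 8 condition lists, are not named as consensus lists. The 1e6 list is named as one, though the labels give it 1 pull-down library. The deposited values are region starts and ends in bp on windows of 100 kb, and depth is unknown. The Methods and labels differ on the hours of nocodazole, and the labels' value is printed.

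Regions were merged and intersected with genes and clusters in Python 3.11.15 with numpy 2.4.6, and the percent of each length inside regions was computed. Interval code was tested on simulated data. Words of 31 bases were counted over both strands of hg19 with numba 0.67.0. Upstream sequences were aligned globally with a match score of 1. Band names are background. No test was run, since each condition has 1 list. Every DEFB gene was accounted for. Named with values were genes whose call differed between lists, the first and last gene of each cluster, DEFB1, DEFB4A, DEFB103A and DEFB118, and the gene outside clusters. Other genes mentioned, DEFB126 and the USP17L family among them, were chosen after their values were seen. The members and lists were chosen with earlier results of these data known. The 3 lists of the authors' own comparisons between methods were not used. Data from RPE1 cells, mouse tissue and SLAM-seq were not used here.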

Additional observations from a re-analysis of the deposited data

How the results depend on the processing

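Each DEFB gene lay wholly inside or wholly outside the regions of each list. Requiring 50% or 100% of a gene, any overlap or the start site therefore could not change the counts. Joining gaps of up to 100 kb left each count within 1.5 times. So did counting genes of all types, though out of 57 DEFB genes, with 16 called in 90m G1 and 15 in bulk. Counting the 8p23.1 copies once by the A copy gave 8 of 33 in 90m G1, against 17.2% of all genes. By the B copy, chosen after seeing the data, the count in bulk was 5 of 33, against 11.1% of all genes. Leaving out the 8p23.1 first block gave 1 in 90m G1 and 3 in bulk, leaving out 6p12.3 gave 0 in S and 0 in K562, and leaving out 20q11.21, or regions under 200 kb, gave 1 in 50k and 1 in 200k. Without flanks, the 8p23.1 first block was 94.7% called in 90m G1, 80.5% in bulk and 0% in the other 8 lists, and with flanks of 0.5 Mb it was also 0% in those 8. The 20p13 stretch stayed at 0% under each alternative.

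For the chromosome 8 end, the first 2 Mb were called at 95% in 90m G1, 60% in 180m G1, 60% in G2, 90% in bulk, 30% in 200k and 0% in K562. The first 5 Mb were at 98% in 90m G1, 82% in 180m G1, 78% in G1, S and G2, 96% in bulk, 72% in 50k and 1e6, 68% in 200k and 38% in K562, and the first 10 Mb at 67% in 90m G1 and 70% in bulk. For the chromosome 20 end, the first 2 and 5 Mb were at 0% in every list, and the first 10 Mb at 17% in G1, S, G2 and 50k, 16% in 200k, 18% in 1e6 and 34% in K562. The larger share on chromosome 20 in K562 thus held over 10 and 15 Mb and turned over 5 Mb. Leaving out N bases, short regions or short gaps kept both ends within the 95% Wilson interval over their windows, which is a yardstick for size and not for error between experiments. Depth limits cannot be given. No paired analysis was possible because each list is already merged over its replicates.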
